A study of Mus musculus with 27 samples.

Results

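Cytosolic ribosomal proteins build the 2 subunits of the ribosome, and the genes described here are the rows of the deposited count table that encode them. A row was a member when its symbol had the form of Rps or Rpl with a number and an optional short suffix, or was Rpsa or Rplp0 to Rplp2, and when it carried a protein-coding transcript. The rule found 84 genes of 55483, of which 32 encode proteins of the small subunit and 52 of the large subunit. A further 6 rows matched by symbol but had no protein-coding transcript and were left out. The cells were RAW264.7, an established mouse macrophage line, kept for 6 h in DMSO (the solvent control), in LPS at 1 µg/ml with DMSO, or in the same LPS with TM7nox at 10 µM. LPS is a bacterial cell-wall lipopolysaccharide that activates macrophages, and TM7nox is one of the tanshinone mimics, small molecules made to disturb the binding of HuR to RNA. Each treatment had 4 total RNA libraries and 4 libraries of RNA immunoprecipitated (RIP) with an antibody to HuR, an RNA-binding protein encoded by Elavl1. Each treatment also had 1 library from control IgG, always numbered 3. All 27 libraries came from this line, so primary macrophages and untreated cells without DMSO are not represented, and no group received TM7nox without LPS.

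In mammals each ribosomal protein is made in step with the others, and their mRNAs are among the most abundant of growing cells. Most of these mRNAs begin with a 5′ terminal oligopyrimidine (TOP) tract, a C followed by a run of C or T in the DNA, through which mTOR signalling and the protein Larp1 control their translation. They are short, stable mRNAs with short 3′ untranslated regions (UTRs). HuR is known for binding U-rich and AU-rich stretches, mostly in 3′ UTRs and introns, and for stabilising many inflammatory mRNAs.

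The starts of the genes are shown first because the pyrimidine tract is the sequence that these mRNAs share. RefSeq windows on the GRCm38.p6 build were found for 64 of the 84 members. A C followed by at least 5 bases that are C or T was searched on the gene's own strand within 20 bases on either side of the annotated start. At least 1 window held such a run in 41 of the 64 members (64.1%). By window the share was 56.6% of 76 member windows against 29.4% of all 32851 windows in the same reference table. In the 30-base windows below, the capitals mark the longest run. The first 4 are core members chosen to show the tract, of which Rpl27a and Rpl34 hold runs of 20 bases, the longest among the 64, Rps27 and Rps27l are a pair of paralogs, and Rpl22l1 and Rpl7l1 are paralogs of Rpl22, shown beside its paralog, and Rpl7.
Rps6, chr4:86857353-86857382, minus strand: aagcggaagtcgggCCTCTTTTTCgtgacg
Rpl18, chr7:45718056-45718085, plus strand: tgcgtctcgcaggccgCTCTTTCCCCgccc
Rpl27a, chr7:109519181-109519210, plus strand: acttcgtgagCTCCTCCCTTTTCCCTTTCT
Rpl34, chr3:130730325-130730354, minus strand: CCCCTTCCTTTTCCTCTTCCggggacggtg
Rps27, chr3:90213634-90213663, minus strand: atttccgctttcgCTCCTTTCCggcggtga
Rps27l, chr9:66946071-66946100, plus strand: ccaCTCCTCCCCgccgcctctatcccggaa
Rpl22, chr4:152324421-152324450, plus strand: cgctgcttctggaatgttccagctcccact
Rpl22l1, chr3:28805493-28805522, plus strand: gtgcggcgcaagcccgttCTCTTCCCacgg
Rpl7l1, chr17:46782642-46782671, minus strand: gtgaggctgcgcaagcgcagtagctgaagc

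The runs lay at or next to the start in Rps6 (10 bases), Rpl18 (10 bases) and Rps27 (9 bases). In Rps27l the run of 9 bases began 12 bases before the annotated start, and in Rpl34 the run of 20 bases began 17 bases before it. No run was found in 23 of the 64 members, Rpl22 and Rpl7l1 among them, which says only that these letters are absent there. Annotated starts can lie some bases away from the start used in these cells, so the windows describe the annotation and not the mRNA ends.

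The libraries held 2.73 to 41.4 M counts. RNA DMSO replicate 1 was the shallowest and stood apart from its group: it was the lowest of the 4 libraries for 54 of 78 members at 5 CPM (counts scaled to library size) or more. RNA LPS replicate 1 was the lowest for 60 of 78 and RNA LPS+TM7nox replicate 1 for 54 of 78. Among the RIP libraries, RIP LPS replicate 4 was the highest of its group for 75 of 77 members and RIP LPS replicate 2 the lowest for 75 of 77. CPM values are on 1 scale over the 27 libraries, set by the trimmed mean of M-values (TMM), which takes the typical gene as equal between libraries. The macrophage markers Cd68, Adgre1, Csf1r, Lyz2, Itgam, Spi1, Cd14 and Fcgr1 were all at 5 CPM or more on average over the RNA libraries. Summed, they reached 5261 to 6340 CPM after DMSO, 4874 to 6908 CPM after LPS and 3308 to 6114 CPM after LPS+TM7nox. None of the 16 markers of T cells, B cells, epithelial cells, fibroblasts or endothelial cells reached 1 CPM on average, and the endothelial list had the largest summed level, 2.79 CPM in 1 DMSO library.

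Members made up 3.97% ± 0.208 of all counts in the RNA DMSO libraries (SD, n = 4), 3.90% ± 0.331 in RNA LPS and 4.13% ± 0.344 in RNA LPS+TM7nox. In the anti-HuR RIP libraries the share was 0.679% ± 0.106 in DMSO, 0.768% ± 0.267 in LPS and 0.688% ± 0.170 in LPS+TM7nox. Every RIP library lay below every RNA library, the highest RIP value being 1.14% and the lowest RNA value 3.54%. Members held 3.49% of the IgG library from DMSO-treated cells (3.48 to 3.50%, 95% Wilson interval). For IgG from LPS-treated cells the share was 3.24% (3.23 to 3.24%), and with TM7nox added it was 3.47% (3.45 to 3.48%). The IgG libraries lay close to total RNA and far from anti-HuR. These intervals cover counting error only. Within total RNA and within RIP the treatments overlapped in share. By replicate number, the RNA share was higher in LPS+TM7nox than in LPS in all 4 pairs. From replicate 1 to 4 it went from 3.54 to 3.86%, 3.70 to 3.83%, 4.22 to 4.30% and 4.14 to 4.53%. The other treatment comparisons, in RNA and in RIP, went both ways, and shares were not tested. A share or level is relative to the rest of a library, so fewer cells and less RNA per cell cannot be told apart.

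**Figure D1:**
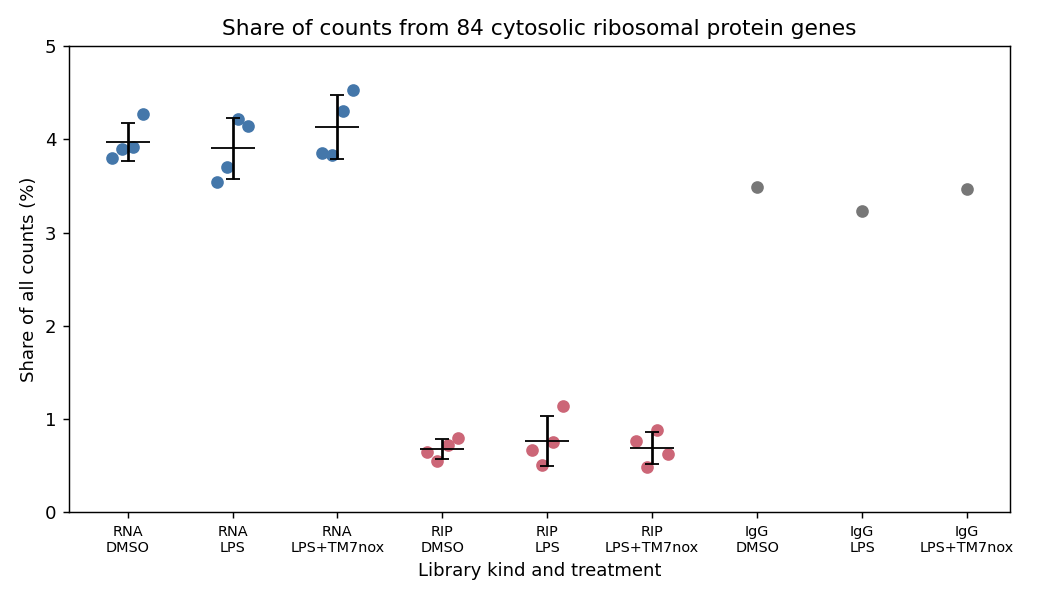
Share of all counts from the 84 member genes in each of the 27 libraries, by kind of library and treatment. Points are libraries, and the bars show the mean and SD of groups of 4. Total RNA lies between 3.54% and 4.53%, anti-HuR RIP between 0.483% and 1.14%, and the 3 IgG libraries between 3.24% and 3.49%.

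To compare levels between genes, the mean CPM in RNA DMSO was divided by the coding length of the canonical transcript in kb. On that scale the median member stood at 535 CPM per kb, 16 members exceeded 1000 and 58 lay between 100 and 1000. The highest were Rpl41, which encodes the smallest ribosomal protein, at 2509 CPM per kb, Rplp1 of the acidic stalk at 2474 and Rpsa, the laminin receptor precursor of the small subunit, at 2020. In RNA LPS they had ranks 1, 2 and 4. The value of Rpl41 leans on a coding length of 138 bases. At the other end, 4 members were below 1 CPM per kb, 2 between 1 and 10 and 4 between 10 and 100. Rpl10l, a testis paralog of Rpl10, had 0 counts in every library, Rpl39l, a paralog of Rpl39, had 3 counts over all 27 and Rpl3l, the muscle paralog of Rpl3, had 112.

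Other low members overlap another annotated gene. Rpl24, Rps10, Rpl36al and Rpl13a were the only 4 members of 84 in which more than 50% of the coding sequence is also annotated to another gene on the same strand in GENCODE M39. The overlapping gene is Gm28037 for Rpl24 (83.4% of the coding sequence, chr16:55786638-55791798 on GRCm39), Gm49804 for Rps10 (92.1%, chr17:27849390-27855643), Gm49383 for Rpl36al (95.3%, chr12:69228230-69231234) and Gm45713 for Rpl13a (97.5%, chr7:44774982-44778263). Over all 27 libraries Rpl24 had 297 counts, Rps10 731, Rpl36al 379 and Rpl13a 7355, while Gm28037, Gm49804, Gm49383 and Gm45713 had 0. These 4 genes encode core proteins of the subunits or, for Rpl36al, a near copy of one. How reads in such overlaps were treated is not given in the sources used here, and the part of the overlap in the low counts was not tested. Copies elsewhere in the genome are a second limit: in 66 of 84 members more than 50% of the 50-base stretches of the coding sequence also occurred at another place in GRCm39, and in 27 all of them did. Reads of those stretches cannot be assigned to a gene from their sequence alone.

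LPS against DMSO in total RNA asked whether macrophage activation changed the level of these mRNAs. Without pairing of the libraries by number, 2 of 80 members tested rose and 0 fell. In that fit 20.2% of the 12369 genes tested rose and 21.7% fell. Calls were made with the edgeR quasi-likelihood test at a Benjamini-Hochberg adjusted p under 0.05 over all genes tested. The members that rose were Rpl7l1 and Rpl41. At an unadjusted p under 0.05, 9 were higher and 0 lower, and DESeq2 called 10 higher and 0 lower. The median log2 fold change of the members was 0.31 (quartiles 0.19 and 0.42), against -0.04 for all genes tested, and 74 of 80 were positive. Since same-numbered libraries varied together, the fit with the replicate number as a block is given beside it: it called 45 members higher and 0 lower. The shares of 20.2% and 21.7% are from the fit without the block and are no background for this count. The member median was 0.33 with the block. With libraries scaled to their total counts, 0 members were called, the member median was 0.03 and the median of all genes moved to -0.32. The distance between both medians was 0.35 under either scaling. Scaling shifts members and all genes nearly alike, so this distance cannot tell whether members rose. Leaving out a library gave 1 call without RNA DMSO replicate 1 (member median 0.21) or 2 or without RNA LPS replicate 3 or 4, 4 without RNA LPS replicate 2, 6 without RNA DMSO replicate 4, 7 without RNA LPS+TM7nox replicate 1 and 11 without RNA LPS replicate 1. Replicates 3 and 4 alone gave 57 calls, all higher, and replicates 1 and 2 alone gave 0. Shares of all genes in these subsets are not given, so both counts stand without a background.

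Rpl7l1, a paralog of the large subunit gene Rpl7, had 112, 122, 115 and 136 CPM in RNA DMSO and 169, 160, 161 and 174 in RNA LPS. The groups did not overlap, and the difference was 0.42 on the log2 scale (SE 0.098, adjusted p = 0.0031). With total-count scaling it was 0.14 and was not called. Its levels in RNA LPS+TM7nox were 138, 125, 123 and 142 CPM, all below every LPS library and within or just above the range of DMSO. Rpl7l1 lies at chr17:47084824-47093606 on the minus strand of GRCm39, overlaps no other annotated gene in its coding sequence, and 21.9% of its 50-base coding stretches recur elsewhere. Rpl41 had 248, 375, 336 and 426 CPM in RNA DMSO and 489, 413, 583 and 525 in RNA LPS, a log2 difference of 0.51 (SE 0.18, adjusted p = 0.037). Its groups overlapped at 426 and 413 CPM.

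The largest difference by size belonged to Rps20, a small subunit protein, with 52.5, 324, 266 and 315 CPM in RNA DMSO and 193, 425, 555 and 547 in RNA LPS. The log2 difference was 0.82 (SE 0.46, adjusted p = 0.17) and did not pass the test. Replicate 1 was the lowest library in both groups. Rps6, the subunit protein phosphorylated by S6 kinase, differed by 0.44 (SE 0.18, adjusted p = 0.057), Rpl5 of the 5S particle by 0.35 (SE 0.25, adjusted p = 0.29), and Rpl11, its partner, by 0.08 (SE 0.15, adjusted p = 0.72). Reference genes often used for normalisation were near the member median: Rplp0 differed by 0.25, Rpl13a by 0.34, Rpl32 by 0.33 and Rps18 by 0.33, none of them called. With total-count scaling Rplp0 (-0.036) and Rpl11 (-0.22) had the opposite sign. With the block, Rps20, Rps6, Rpl5, Rplp0, Rpl32 and Rps18 were called higher, and Rpl11 and Rpl13a were not.

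LPS+TM7nox against LPS asked what the HuR inhibitor changed in activated cells. In total RNA 0 members rose and 1 fell of 80, against 7.37% of all genes that rose and 6.40% that fell. The member median was 0.12 and that of all genes 0.00, and leaving out 1 library moved the member median between 0.012 (without RNA LPS replicate 1) and 0.22 (without RNA LPS+TM7nox replicate 1). The member that fell was Rpl7l1, by 0.33 on the log2 scale (SE 0.098, adjusted p = 0.038), with the library values given above. At an unadjusted p under 0.05, 0 were higher and 1 lower, and DESeq2 called 0 and 1. The call of Rpl7l1 rested on several single libraries: 0 members were called without RNA LPS replicate 2, 3 or 4, without RNA LPS+TM7nox replicate 2, 3 or 4, or without RNA DMSO replicate 2. With the replicate block 4 members were called: Rpl7l1 (-0.33) and Rps27l (-0.36) lower, Rpl5 (0.29) and Rpl10a (0.31) higher. Rps27l, a paralog of Rps27 and a known p53 target, had 33.2, 64.6, 70.1 and 70.0 CPM in RNA LPS and 35.0, 46.5, 46.5 and 53.3 in RNA LPS+TM7nox, and these ranges overlapped through replicate 1.

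LPS+TM7nox against DMSO shares its libraries with both comparisons above. Here 15 members rose and 0 fell of 80, against 23.7% of all genes that rose and 23.6% that fell, with a member median of 0.43. At an unadjusted p under 0.05, 31 were higher and 1 lower. DESeq2 called 30 higher and 0 lower, and the replicate block 61 higher and 1 lower, which was Rps27l (-0.50). The shares of 23.7% and 23.6% are not the background for these counts, whose own shares of all genes are not given. With total-count scaling 0 were higher and 1 lower, again Rps27l, with a member median of 0.11 against -0.33 for all genes. Replicates 1 and 2 alone called 0 members. Leaving out a library gave 2 calls without RNA LPS+TM7nox replicate 4, 6 without its replicate 3 or without RNA DMSO replicate 3, and 34 without RNA LPS+TM7nox replicate 1. The 3 largest rises without overlap between libraries were those of Rps23, Rps6 and Rpl17. Rps23, of the decoding centre, had 531, 830, 632 and 987 CPM in DMSO and 989, 1081, 1248 and 1334 in LPS+TM7nox (log2 difference 0.62, SE 0.19, adjusted p = 0.017). Rps6 had 175, 311, 278 and 337 CPM in DMSO and 339, 370, 412 and 460 in LPS+TM7nox (0.50, SE 0.18, adjusted p = 0.031). In both genes the highest DMSO library lay just below the lowest LPS+TM7nox library. Rpl17 differed by 0.46 (SE 0.14, adjusted p = 0.015).

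**Figure D2:**
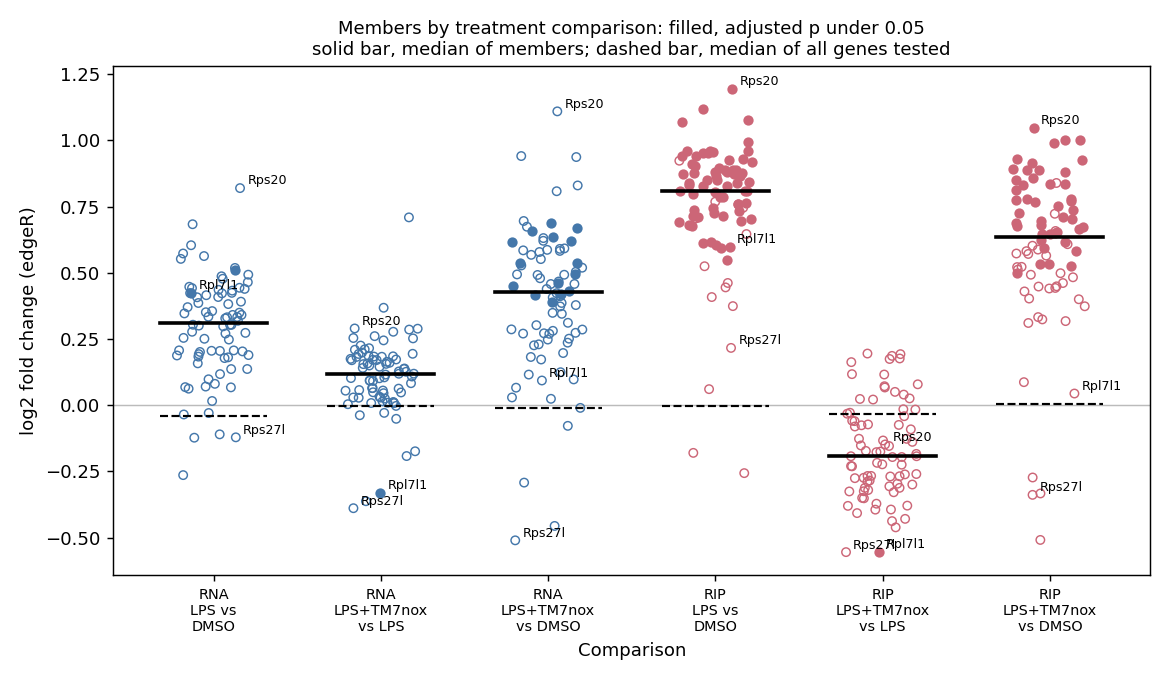
Log2 fold change of each of the 80 members tested in the 6 treatment comparisons, in total RNA (blue) and anti-HuR RIP (red). Filled points have an adjusted p under 0.05, solid bars are member medians and dashed bars medians of all genes tested. Member medians lie at 0.31, 0.12 and 0.43 in RNA and at 0.81, -0.19 and 0.64 in RIP, while Rpl7l1 and Rps27l lie low in both comparisons of LPS+TM7nox with LPS.

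Anti-HuR RIP over total RNA in the same treatment asked which mRNAs were recovered with HuR more or less than the typical mRNA. Nearly all ribosomal protein mRNAs were recovered less. In DMSO 1 member was higher and 77 were lower of 81 tested, against 37.0% of 14311 genes that were higher and 33.4% that were lower. In LPS 1 was higher and 76 were lower (32.9% and 30.8% of all genes). The higher member in DMSO and in LPS was Rpl24, which passed the low-count filter through RIP libraries, where it was high. In LPS+TM7nox 0 were higher and 78 were lower (35.2% and 34.8% of all genes). The member median was -1.84 in DMSO, -1.43 in LPS and -1.69 in LPS+TM7nox, which are 3.58-, 2.7- and 3.22-fold lower than in total RNA. Medians of all genes were 0.04, -0.06 and -0.09. The ratio is relative to the other mRNAs of a library and carries no absolute scale. With total-count scaling the member medians were -2.64, -2.39 and -2.66 and those of all genes -0.72, -1.06 and -1.07. Small and large subunit members had medians of -1.81 and -1.87 in DMSO.

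Rps26, a small subunit protein at the mRNA exit channel, was the lowest in DMSO. It had 809, 536, 501 and 438 CPM in RNA DMSO and 81.1, 64.9, 77.7 and 73.9 in RIP DMSO, a log2 ratio of -2.82 (SE 0.18, adjusted p = 6.3e-13). Rpl34, whose start window is shown above, followed at -2.70 (SE 0.25, adjusted p = 7.0e-10), with 259 to 457 CPM in RNA and 45.2 to 62.7 in RIP. Rps21 came next at -2.58 (SE 0.33, adjusted p = 1.7e-07). In LPS the 3 lowest were Rps26 (-2.22), Rpl34 (-2.11) and Rpl41 (-2.10), and in LPS+TM7nox Rpl41 (-2.54), Rpl34 (-2.52) and Rpl32 (-2.44). In all of these the RIP libraries lay below every RNA library of the treatment. The same absence of overlap held for 68 of 81 members in DMSO, 59 in LPS and 76 in LPS+TM7nox, against 30.0%, 27.7% and 30.1% of all genes tested.

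**Figure D3:**
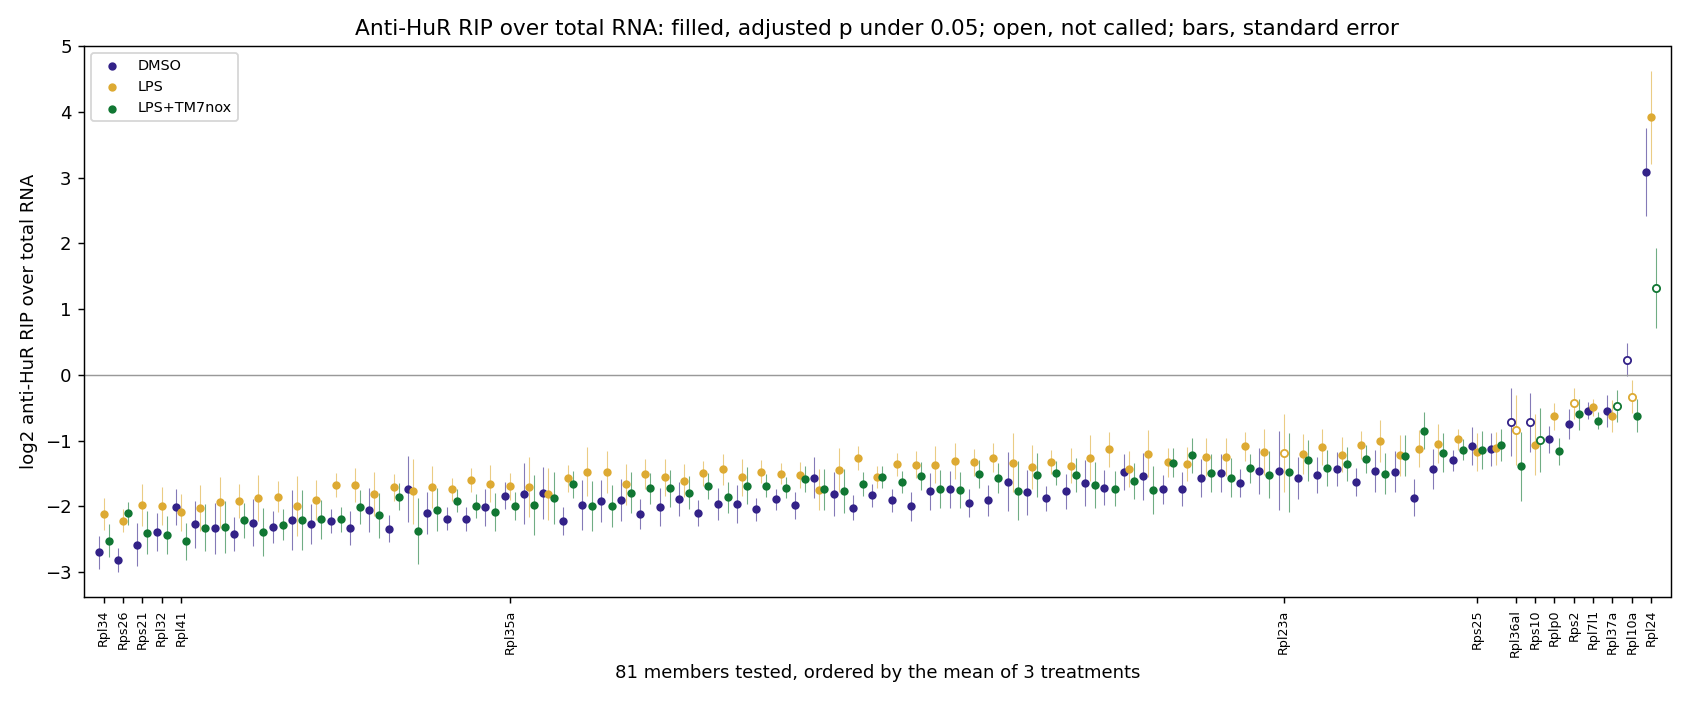
Log2 ratio of anti-HuR RIP to total RNA for the 81 members tested, in 3 treatments, ordered by their mean, with the members discussed in the text named on the axis. Filled points have an adjusted p under 0.05, open points do not, and bars are standard errors. Most members lie between -1 and -3, Rpl10a, Rpl37a, Rpl7l1 and Rps2 lie nearer to 0, and Rpl24 stands above 0 on few counts.

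Members not called were Rps10, Rpl36al and Rpl10a in DMSO, Rpl23a, Rpl36al, Rps2 and Rpl10a in LPS, and Rps10, Rpl37a and Rpl24 in LPS+TM7nox. With the replicate block Rpl23a (-1.08) and Rps2 (-0.47) in LPS, and Rps10 (-1.03), Rpl37a (-0.47) and Rpl24 (1.43) in LPS+TM7nox were called as well. Rpl10a, a protein of the L1 stalk of the large subunit, had 82.8, 200, 162 and 197 CPM in RNA DMSO and 200, 168, 173 and 174 in RIP DMSO, with a log2 ratio of 0.23 (SE 0.25, not called) that turned to -0.51 and was called lower with total-count scaling. Its ratio was -0.34 in LPS (SE 0.25, not called) and -0.62 in LPS+TM7nox (SE 0.25, called). RNA DMSO replicate 1 was the lowest library there and the ranges of both kinds of library overlapped. All 50-base stretches of its coding sequence recur at 5 other places in the genome. Rpl37a, of the large subunit, had ratios of -0.55, -0.63 and -0.48 (called in DMSO and LPS), Rpl7l1 of -0.55, -0.49 and -0.70 (called in all 3) and Rps2, near the mRNA entry, of -0.75, -0.44 and -0.60 (called in DMSO and LPS+TM7nox). Rplp0, the stalk base, had -0.98, -0.63 and -1.17, all called, with 291 to 387 CPM in RIP DMSO against 431 to 872 in RNA DMSO. Coding sequence of Rplp0 lies to 62.8% opposite Gm73188, and whether the counting used strand is not given in the sources used here.

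Rpl24 went the other way, on few reads. Over the 4 libraries of a group it had 12 counts in RNA DMSO, 7 in RNA LPS and 30 in RNA LPS+TM7nox, and 105, 76 and 58 in the matching RIP groups. The fitted log2 ratios were 3.09 in DMSO (SE 0.67) and 3.92 in LPS (SE 0.71), both called, and 1.32 in LPS+TM7nox (SE 0.60, not called). Rpl24 failed the low-count filter in the RNA libraries and passed here through the RIP libraries, where it was high. These calls are therefore partly fixed by the filter and are no test of recovery. The 3 IgG libraries had 2, 4 and 3 counts. Zbtb11os1 lies opposite 34.2% of its coding sequence, in addition to the overlap with Gm28037, and the source of these reads was not tested.

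Anti-HuR RIP was compared with control IgG over 15 libraries with treatment in the model, because 1 IgG library a treatment allows no test within a treatment. Of 82 members tested, 1 was higher (Rpl24) and 79 were lower, against 33.8% of 14973 genes that were higher and 34.2% that were lower. Rpl24 was kept by the low-count filter through its RIP libraries, so its call is partly fixed by the filter. The member median was -1.34 and that of all genes 0.00. With total-count scaling they were -2.37 and -1.02. Members therefore made a smaller part of the anti-HuR libraries than of the IgG libraries, as they did against total RNA. The lowest without overlap was Rps3, a small subunit protein with a role in DNA repair, at -1.95 (SE 0.22, adjusted p = 1.8e-07). Rps3 had 637, 832 and 970 CPM in IgG and 98.8 to 361 in the 12 RIP libraries. Rpl38 (-1.80) and Rps26 (-1.75) followed. Rpl10a (-0.25, SE 0.16) and Rpl37a (-0.18, SE 0.19) were not called. Rpl10a had 166, 179 and 220 CPM in IgG and 128 to 200 in RIP, and with the replicate block it was called lower (-0.40). With the block 75 members were called lower, and Rplp0 (-0.20), Rpl27 (-0.094), Rps10 (-1.03), Rpl36al (-0.84) and Rpl3l (-1.74) were not.

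Members were also set beside other mRNAs by a U-rich motif, since HuR binds such stretches. The motif was TTTNTTT, searched on the transcript strand of the annotated 3′ UTR, and it can overlap the AU-rich motif ATTTA. Matches that overlap each other were counted separately, so 1 stretch of T can hold several. It occurred in 31 of 81 members (38.3%) against 71.8% of 11213 coding genes tested. The median annotated 3′ UTR was 213 bases in members and 1318 in coding genes (90 and 1187 with the shortest form annotated for each gene), and 36 of 81 members had fewer than 100 bases (44.4% against 4.13%). Sites of Rps25, Rplp0 and Rpl7l1, whose ratios are nearer to 0 than the median member, are shown from GRCm39 beside one of Rpl35a, whose ratio is not. The motif is in capitals.
Rps25, chr9:44321406-44321435, plus strand: gcggttatgacTTTGTTTttttttgtttgt
Rplp0, chr5:115701576-115701605, plus strand: tccggtctggaTTTATTTagtttgttcact
Rpl7l1, chr17:47088730-47088759, minus strand: aggcacagcttTTTATTTtacaaatcaatc
Rpl35a, chr16:32880525-32880554, plus strand: gtgctcttgtaTTTTTTTttcacatctgtc

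Rps25 holds 6 such matches in 141 bases and had ratios of -1.08, -1.18 and -1.15 in DMSO, LPS and LPS+TM7nox. Rpl35a holds 3 overlapping matches, all in the stretch of T shown, in 68 bases and had -1.84, -1.70 and -2.0, close to or below the median member. In DMSO the median ratio was -1.87 for the 31 members with the motif and -1.83 for the 50 without. Among other coding genes the medians were 0.15 for 8022 with the motif and -0.90 for 3003 without. Across coding genes the number of motifs and the ratio in DMSO had a Spearman rho of 0.54 (11106 genes), and across the 81 members rho was 0.03. Coding length and the ratio had a rho of 0.238 in DMSO, 0.403 in LPS and 0.525 in LPS+TM7nox across members. Across coding genes these were 0.0851, 0.0755 and 0.123. For RIP against IgG the rho of members with coding length was 0.0255. These correlations are across genes of the same libraries, which are not independent replicates, and are given as a description. Many annotated 3′ UTRs of members are longer than the forms usually described, such as 5759 bases in Rpl37. The 77 genes of mitochondrial ribosomal proteins, a class added after the data were seen, had a median of -1.44 in DMSO with 66 lower and 5 higher, and their median 3′ UTR was 870 bases.

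**Figure D4:**
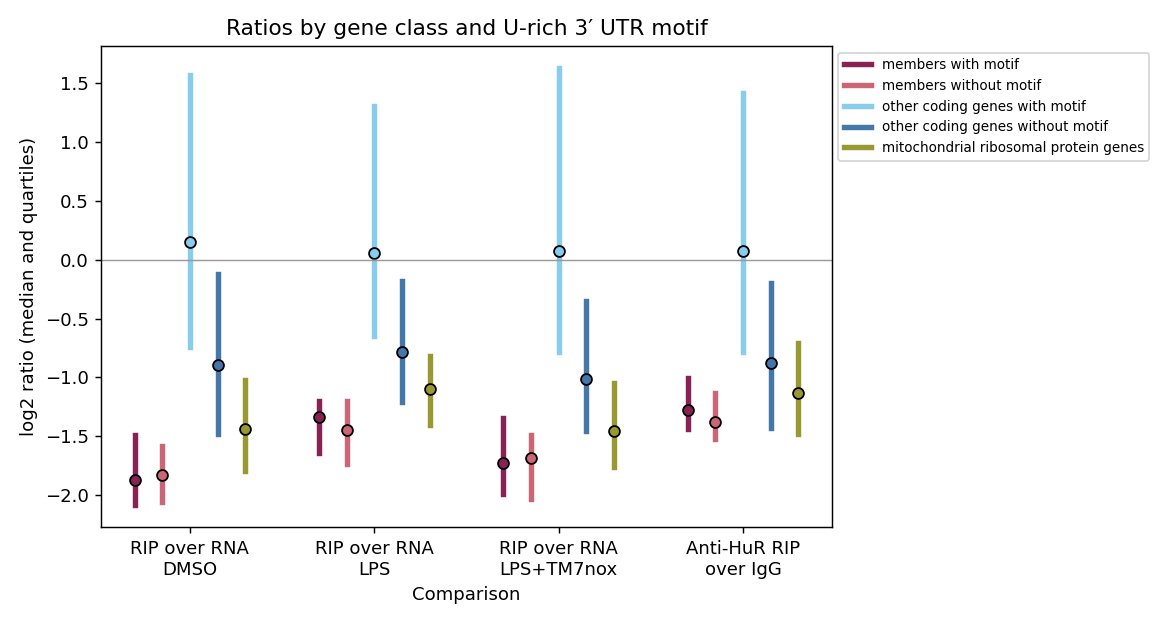
Median (point) and quartiles (bar) of the log2 ratio of anti-HuR RIP to total RNA in 3 treatments and to IgG, for members and other coding genes with or without TTTNTTT in the 3′ UTR and for mitochondrial ribosomal protein genes. In DMSO members lie at -1.87 and -1.83 with and without the motif, other coding genes at 0.15 and -0.90.

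LPS was then compared with DMSO within the RIP libraries. Of 80 members 66 rose and 0 fell with TMM scaling, against 23.5% of 13614 genes that rose and 21.2% that fell. The member median was 0.81 against 0.00 for all genes. With the replicate block all 66 stayed called, further members were called higher and none lower, and the share of all genes is not given. With total-count scaling 0 rose and 1 fell (Rpl10a), the member median was 0.21 and that of all genes -0.63. The distance between both medians was 0.84, which a change of scaling leaves nearly as it was. All LPS libraries lay above all DMSO libraries for 36 members, against 21.6% of all genes tested. Rps27, Rpl9 and Rps23 had the largest differences among these. Rps27, a zinc-finger protein of the small subunit, had 61.4, 52.2, 69.4 and 73.5 CPM in RIP DMSO and 121, 104, 148 and 189 in RIP LPS (log2 difference 1.12, SE 0.21, adjusted p = 3.8e-04). Rpl9 differed by 1.08 (SE 0.22, adjusted p = 8.3e-04) and Rps23 by 1.07 (SE 0.22, adjusted p = 8.3e-04). Rps20 differed most in size, by 1.2 (SE 0.32, called), with 54.9 to 110 CPM in DMSO and 94.3 to 293 in LPS. Rpl7l1 rose by 0.60 (SE 0.15, adjusted p = 0.0044) with TMM scaling, and stood at -0.024 and was not called with total-count scaling. Members not called included Rpl10a, at -0.26 (SE 0.17), and Rps27l, at 0.22 (SE 0.24). The highest LPS library was replicate 4 for 75 of 77 members. It also had 1.86% of its counts from mitochondrially encoded genes, against 0.56 to 0.63% in replicates 1 to 3. In another RIP group, RIP LPS+TM7nox replicate 1 had 1.72%, and a link to the members was not tested. Without RIP LPS replicate 4, 36 members were called, all higher, with a median of 0.51. Without RIP DMSO replicate 1, 2 or 3 the count was 44, 39 and 43, and replicates 1 and 2 alone gave 9.

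LPS+TM7nox against LPS in the RIP libraries called 0 members higher and 1 lower of 80, against 8.64% and 7.61% of all genes. At an unadjusted p under 0.05, 0 were higher and 3 lower, and DESeq2 called 0 and 1. The member called was again Rpl7l1, with 114, 102, 126 and 134 CPM in RIP LPS and 87.4, 77.4, 92.0 and 77.9 in RIP LPS+TM7nox (log2 difference -0.55, SE 0.15, adjusted p = 0.020). The groups did not overlap. No member was called without RIP LPS replicate 1, 3 or 4 or without RIP LPS+TM7nox replicate 2 or 4. The member median was -0.19 with all libraries and 0.07 without RIP LPS replicate 4, so that library set its sign. With the replicate block 4 members were lower and 0 higher: Rpl7l1 (-0.55), Rps27l (-0.53), Rplp1 (-0.45) and Rplp0 (-0.41). Rplp0 and Rplp1 encode proteins of the ribosomal stalk, as does Rplp2, which stood at -0.12 with the block and was not called.

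Against DMSO, LPS+TM7nox in the RIP libraries called 45 members higher and 0 lower, against 25.1% and 23.1% of all genes, with a member median of 0.64. The replicate block called 71 higher and 1 lower, Rpl10a (-0.28). The shares of 25.1% and 23.1% belong to the fit without the block and are no background for these counts. With total-count scaling 0 were higher and 5 lower (Rps27l, Rpl10a, Rps10, Rpl7l1 and Rpl24), with a member median of 0.01 and -0.63 for all genes. Rps20 (1.05, SE 0.32, adjusted p = 0.012), Rpl5 (1.00, SE 0.29, adjusted p = 0.0094) and Rpl9 (1.00, SE 0.22, adjusted p = 0.0013) had the largest differences without overlap. Rpl5 had 97.2, 103, 144 and 191 CPM in RIP DMSO and 253, 226, 322 and 320 in RIP LPS+TM7nox. Without RIP DMSO replicate 1, 2 or 3 the count was 23, 16 and 26, and without RIP LPS+TM7nox replicate 3 it was 26.

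Whether the RIP over RNA ratio itself changed was tested as an interaction over the 24 RNA and RIP libraries. By LPS, 0 of 81 members changed in edgeR, against 0.0419% of 14311 genes called in either direction. DESeq2 and the replicate block also called 0, and at an unadjusted p under 0.05 there were 13 higher and 0 lower. The member median was 0.38 and that of all genes 0.02, and leaving out 1 library moved the member median between 0.21 (without RIP LPS replicate 4) and 0.65 (without RIP LPS replicate 2). Rps26 stood at -2.82 in DMSO and -2.22 in LPS, a difference of 0.60 that did not pass the test (SE 0.24, adjusted p = 0.61). By TM7nox in LPS-treated cells 0 of 81 members changed, against 0.00699% of all genes. DESeq2 again called 0, and 0 were higher and 2 lower at an unadjusted p under 0.05. The median was -0.27 with all libraries and 0.02 without RIP LPS replicate 4. For Rpl7l1 the interaction with TM7nox was -0.20 (SE 0.18, adjusted p = 0.89), which did not pass the test.

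For the 3 paralogs at over 10 CPM per kb, the level was compared with that of the core gene, and in each pair the paralog had the lower mean. Per kb of coding sequence in RNA DMSO, Rpl7l1 stood at 164 CPM and Rpl7 at 569, Rps27l at 251 and Rps27 at 733, and Rpl22l1 at 22.4 and Rpl22 at 1010. Rps27 and Rps27l have coding lengths of 252 bases each. In RNA LPS+TM7nox against DMSO Rps27 differed by 0.81 (SE 0.33, adjusted p = 0.055) and Rps27l by -0.51 (SE 0.21, adjusted p = 0.061), and neither was called. With the replicate block both were called, Rps27 at 0.91 and Rps27l at -0.50, and with total-count scaling Rps27l was called (-0.84). Rpl22l1 and Rpl22 differed in the same direction, by 0.83 (SE 0.35) and 0.38 (SE 0.17), and neither was called. With the block both were called. Rpl22l1 had 3.86 to 13.3 CPM in RNA DMSO and 9.65 to 19.1 in RNA LPS+TM7nox, and the ranges overlapped. Differences between the paralogs of a pair were not tested.

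**Figure D5:**
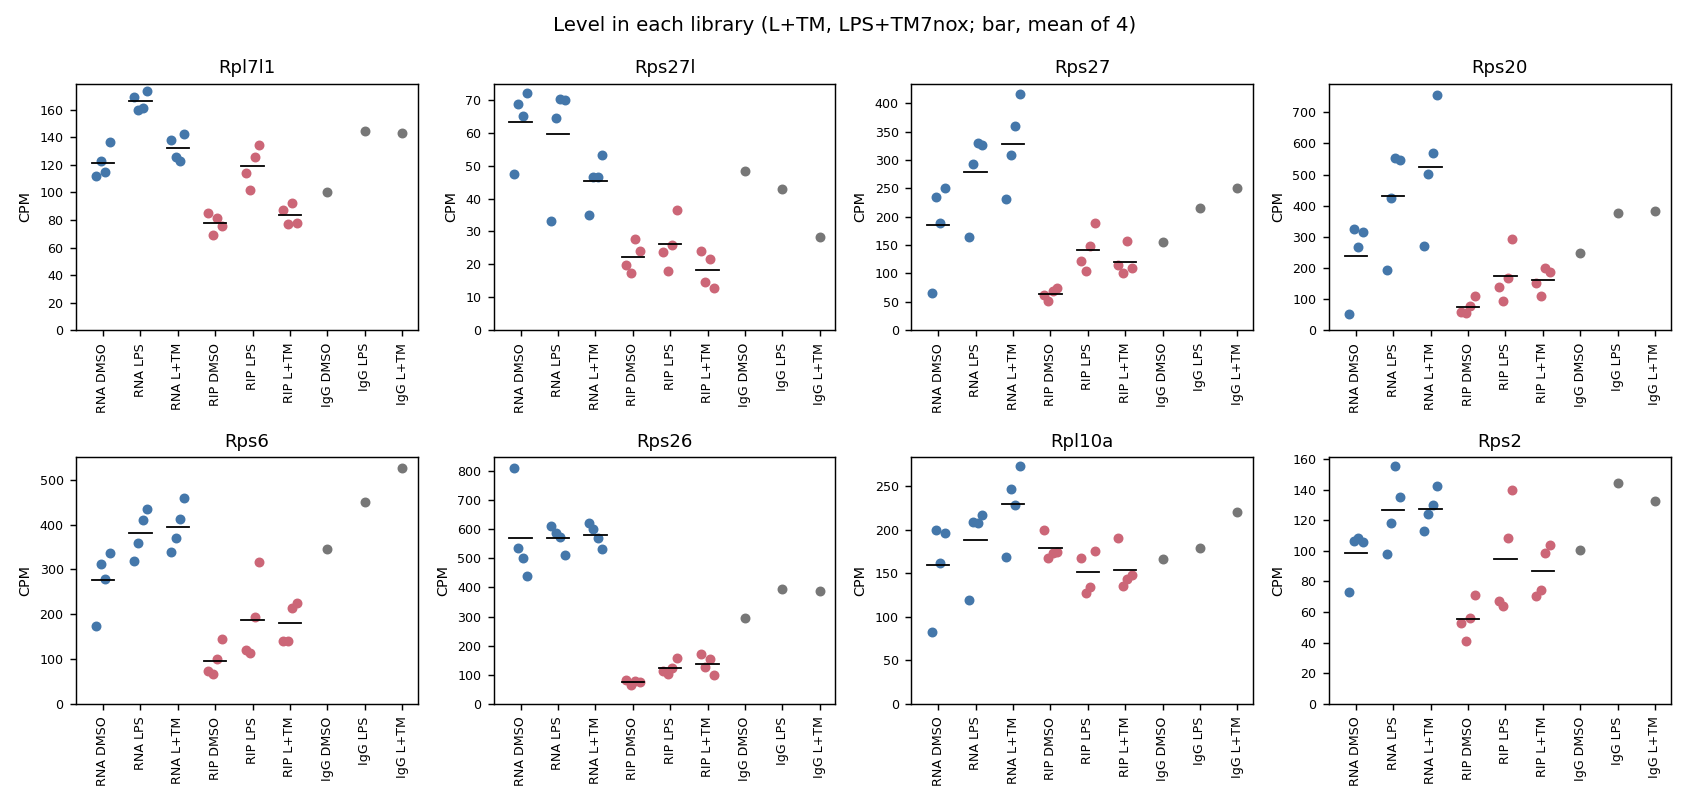
CPM of 8 members in each of the 27 libraries, by kind and treatment (L+TM is LPS+TM7nox), with bars at the mean of groups of 4. On this TMM scale Rpl7l1 is highest in LPS in RNA (160 to 174 CPM) and RIP (102 to 134), a difference from DMSO that with total-count scaling is 0.14 in RNA and -0.024 in RIP on the log2 scale, Rps26 is far lower in RIP than in RNA, and the ranges of Rpl10a in RNA, RIP and IgG overlap.

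Genes around the ribosome were read from lists of other ribosomal proteins, translation factors with TOP mRNAs, assembly factors, rRNA transcription factors and TOP mRNA regulators. Of all genes tested in total RNA, 20.2% rose and 21.7% fell with LPS, and 7.37% rose and 6.40% fell with TM7nox added to LPS, which is the background for the counts in total RNA. Of 16 translation factors with TOP mRNAs, 1 rose and 1 fell with LPS in total RNA (median 0.31), 0 changed with TM7nox added to LPS (0.11), and 2 were higher and 12 lower in RIP over RNA in DMSO (-1.53), where 37.0% of all genes were higher and 33.4% lower. The translation factor that rose was Tpt1 (0.45) and the one that fell was Eif4b (-0.43). Pabpc1, the poly(A)-binding protein, was higher in RIP over RNA in DMSO, at 1.67. Of 25 assembly factors, 2 rose and 7 fell with LPS, and 0 rose and 9 fell with TM7nox added to LPS, with a median of -0.30. In RIP over RNA in DMSO 4 assembly factors were higher and 19 lower (-1.50), so low recovery was not particular to ribosomal protein and TOP mRNAs. Those that fell with TM7nox included Dkc1 of the pseudouridylation complex (-0.84, SE 0.11), its partner Nop10 (-1.02, SE 0.25), the chaperone Nolc1 (-0.76, SE 0.13) and the methyltransferase Nop2 (-0.53, SE 0.11).

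Of 10 rRNA transcription genes, 1 rose and 2 fell with LPS and 0 rose and 2 fell with TM7nox added to LPS. Ubtf, the factor that opens rDNA, fell in both (-0.98, SE 0.14, and -0.85, SE 0.14), as did Polr1b of RNA polymerase I (-0.91 and -0.58). Of 12 regulators of TOP mRNAs, 2 rose and 3 fell with LPS, with Larp1 at 0.90 (SE 0.12) and Eif4ebp2 at -1.35 (SE 0.19). With TM7nox added to LPS 2 rose and 1 fell, with Eif4ebp1, the inhibitor of Eif4e, at 1.57 (SE 0.14). Of 3 ribosomal protein genes whose names fall outside the rule, 2 were lower in RIP over RNA in all 3 treatments, Rack1 (-1.37 in DMSO) and Fau (-1.52), and 1 was called in none. All of these calls are from the same fits and adjustment over all genes tested.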

How the data were processed

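The authors deposited raw, unnormalized read counts for 55483 mouse genes with Ensembl identifiers. Per the labels' protocols, RNA came from about 30 M cells per sample and SMART-Seq Stranded libraries from 7 ng of RNA. The submitters' processing notes name FastQC 0.11.9, STAR, HTSeq, DESeq2 and GRCm39, with no role or order. The annotation release and strand setting were not given in the sources used here. Nothing says that replicates came from separate cultures, so p-values measure the spread between these libraries.

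All 27 libraries were grouped by their labels. Low genes were removed with filterByExpr (minimum count 10). Tests used edgeR 4.0.16 (R 4.3.3), with two-sided quasi-likelihood tests and TMM scaling, and genes were called at a Benjamini-Hochberg adjusted p under 0.05 over all genes tested. SE is the log2 fold change divided by the square root of F. Fits used the 12 RNA libraries, the 12 RIP libraries, those 24 together, and 15 RIP and IgG libraries with treatment as a covariate. Alternatives were other scalings, no filter, DESeq2 1.42.0, a replicate block, subsets of replicates and leaving out each library. Shares of all genes called are given only for the edgeR fits with TMM scaling, all libraries and no block. They are no background for member counts under an alternative or at an unadjusted p. Total-count scaling was added after seeing the data. The scripts were tested on simulated data.

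All 36 correlations between same-numbered libraries of different groups, of deviations from the group means across genes, exceeded 0.1 (0.137 to 0.467), so the numbers were taken to pair the libraries. The fits reported first did not use this pairing, and counts of members called depended on it. Results with the replicate number as a block are given beside many of them. No 2 replicates agreed within sampling noise (chi-square per gene 38.0 to 213). Of the identifiers, 93.2% matched GENCODE M39 on GRCm39, including all 84 members. The 4 members not tested in RNA were Rpl10l, Rpl24, Rpl3l and Rpl39l.

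Members named were the paralogs and their counterparts, Rplp0, Rpl13a, Rpl32, Rps18, Rps6, Rps3, Rpl5, Rpl11, Rps19, Rpsa, Rplp1 and Rplp2. Named too were, in each comparison, the 3 largest changes each way among members called, at a mean of 5 CPM or more and without overlap between groups, and members whose call differed from most where there were 5 or fewer. Others (Rps20, Rps25, Rpl35a, Rpl37, Rpl27, Rpl18 and Rpl27a) were named after their values or sequences were seen. Members and lists were chosen with earlier results of these data known. Results for some genes are not reported here.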

Additional observations from a re-analysis of the deposited data

Results flagged for a closer look

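Among 96 groups of 4 libraries (the member share of counts and 15 named members in 6 groups each), 3 had a library set apart from the other 3 by more than the 95% limit of Dixon's test for 4 values. Chance flags about 1 in 20 groups. Rps21 had 68.8 CPM in RNA DMSO replicate 1, against 248 to 271 in the other 3 libraries of that group. This is the shallowest library of the series. Rpl17 had 275 CPM in RNA DMSO replicate 3, against 374 to 388, and 84.3 CPM in RIP DMSO replicate 4, against 67.1 to 68.5.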

How the results depend on the processing

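Counts of members called (higher and lower together) in the 6 treatment comparisons depended on the processing. For LPS against DMSO (2 calls) the count was 5 with RLE scaling, 29 without the low-count filter, 0 with total-count scaling, 10 with DESeq2, 45 with the replicate block, 0 from replicates 1 and 2 only and 57 from replicates 3 and 4 only. For LPS+TM7nox against DMSO in RNA (15 calls) it was 49 without the filter, 1 with total-count scaling, 30 with DESeq2, 62 with the replicate block, 0 from replicates 1 and 2 and 65 from replicates 3 and 4. For LPS+TM7nox against LPS (1 call in RNA and 1 in RIP) it was 0 in both without the filter, 4 in both with the replicate block, 0 in both from replicates 1 and 2, and 2 in RNA and 0 in RIP from replicates 3 and 4. For LPS against DMSO in RIP (66 calls) it was 1 with total-count scaling and 9 from replicates 1 and 2. For LPS+TM7nox against DMSO in RIP (45 calls) it was 5 with total-count scaling, 72 with the replicate block and 19 from replicates 3 and 4. The cause was not tested. Leaving out 1 library at a time gave, in RNA, 1 to 11 calls for LPS against DMSO, 0 to 1 for LPS+TM7nox against LPS and 2 to 34 for LPS+TM7nox against DMSO. In RIP the ranges were 36 to 71, 0 to 1 and 16 to 54. RIP over RNA stayed at 76 to 79 calls under DMSO, 75 to 79 calls under LPS and 74 to 80 calls under LPS+TM7nox, RIP against IgG at 75 to 80, and both interactions at 0. For the 24 changes named for their size, each called and without overlap between groups, 594 values were computed under the alternatives. Of these values 555 kept their direction and side of the threshold, 39 kept the direction only and 0 reversed. The 24 were picked from these same data, so this outcome was largely fixed and does not speak for the other members. With total-count scaling other members could reverse, called or not. Rplp0 and Rpl11, not called, did so in RNA LPS against DMSO. Rpsa, called in RIP LPS against DMSO, went from 0.61 to -0.012. Of 80 members, 51 kept their sign in RNA LPS against DMSO and 67 in RIP LPS against DMSO. For RIP LPS+TM7nox against DMSO the number was 45. The shallowest library, RNA DMSO replicate 1 with 2.73 M counts, limits the precision of low members such as Rpl24.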
